A study of Mus musculus with 3 samples.

Results

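Gene expression in naive CD4+ T cells cultured with IL-21 was set directly against that in the same cells cultured with IL-6 plus TGFb1. Naive CD4+ T cells are helper T lymphocytes that have not met antigen. They came from wild-type C57BL/6 mice 8 weeks old, and the series also holds 1 array of cells given medium and vehicle. Each culture was measured on 1 array, so 2 of the 3 arrays make up this comparison. The sources used here do not give the cytokine doses, the hours in culture, any stimulation of the T cell receptor, or how many animals gave cells. All 3 arrays entered the choice of probe set and the brightness filter. Intensities from the medium array stand beside the other values and enter no difference, and where a gene's medium value is compared in words, this is a description of single arrays. Of 19935 genes with a probe set carrying exactly 1 gene symbol, 11003 had a value of at least 187, the median of all values, on 1 or more arrays, and these were compared. A difference is log2(intensity + 1) with IL-21 minus the same with IL-6 plus TGFb1, so a positive value is higher with IL-21. With no replicate arrays there is no error on any difference and no test, and each value describes these 2 arrays. The cultures differ in IL-21 against IL-6 and also in TGFb1, and these factors cannot be told apart here.

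IL-21 is a cytokine of activated helper T cells that signals through its own receptor and the common gamma chain. IL-6 signals through gp130. Both activate the transcription factor STAT3. TGF-beta 1 signals through receptor kinases to SMAD proteins, and together with IL-6 it is the pair commonly used to obtain Th17 cells, the helper cells that make IL-17 and depend on ROR nuclear receptors. In mouse T cells TGF-beta is also known to restrain the Th1 and Th2 programmes, driven by T-bet and GATA3 respectively.

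Among genes of the helper lineages, Il17f, Maf and Il23r were lower with IL-21, while Gata3, Il4 and Eomes were higher. Differences of like size lay outside those lineages: Cysltr1, Timp1 and Emp1 were lower with IL-21, and Ajuba, Akr1c18, Nrn1 and Pros1 were higher. With IL-21, 30 genes stood 2-fold or more above the other culture, which is 0.273% of those compared, and 21 were at least 2-fold lower, which is 0.191%. At 1.5-fold the counts were 102 higher (0.927%) and 58 lower (0.527%). Most genes were alike on both arrays: 98.0% of the differences lay within 0.5 log2 units, and the central 90% ran from -0.22 to 0.24. Above 0 were 44.7% of the differences, below 0 were 42.3%, and the other 13.0% were exactly 0, because the deposited values of the 2 arrays were identical there.

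**Figure D1:**
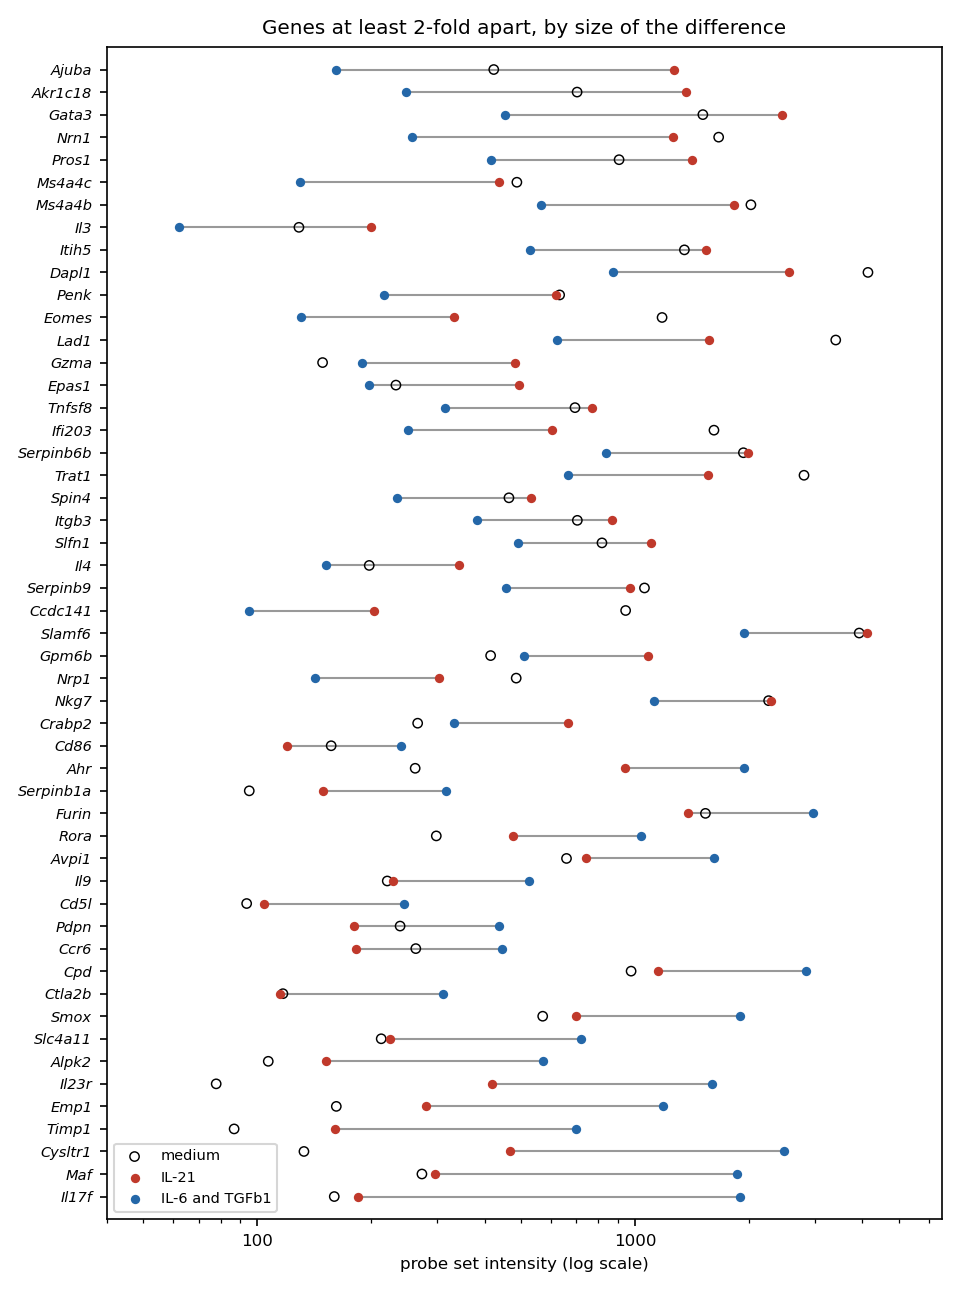
Probe set intensity on a log axis for the 51 genes at least 2-fold apart between IL-21 (red) and IL-6 with TGFb1 (blue), ordered by their difference, with the medium array as an open circle. Each point is 1 array. The widest gaps are those of Ajuba (1272 against 162) and Il17f (185 against 1896).

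As a measure of probe set error within these arrays, 629 genes had at least 2 probe sets above the brightness filter. The differences from their 2 brightest probe sets were a median of 0.05 log2 units apart, with a 95th percentile of 0.34 and a largest gap of 1.14. This covers probe set error, and neither error shared by the probe sets of an array nor the spread between cultures. Some pairs gave the same values, such as Snord118 with 466 under IL-21 and 267 under IL-6 plus TGFb1 from both probe sets. Such pairs make the gaps smaller. Genes of all brightness levels were past 2-fold. Of 4 equal bins by mean intensity, the brightest held 7 of the 51, or 0.254% of its genes, and for each of the other 3 the share was between 0.509% and 0.545%. Crabp2 (665 with IL-21 against 332) and Cd86 (120 against 241) lay just inside the 2-fold line, and Epsti1 (0.97) and Cldnd1 (-0.98) just outside it.

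**Figure D2:**
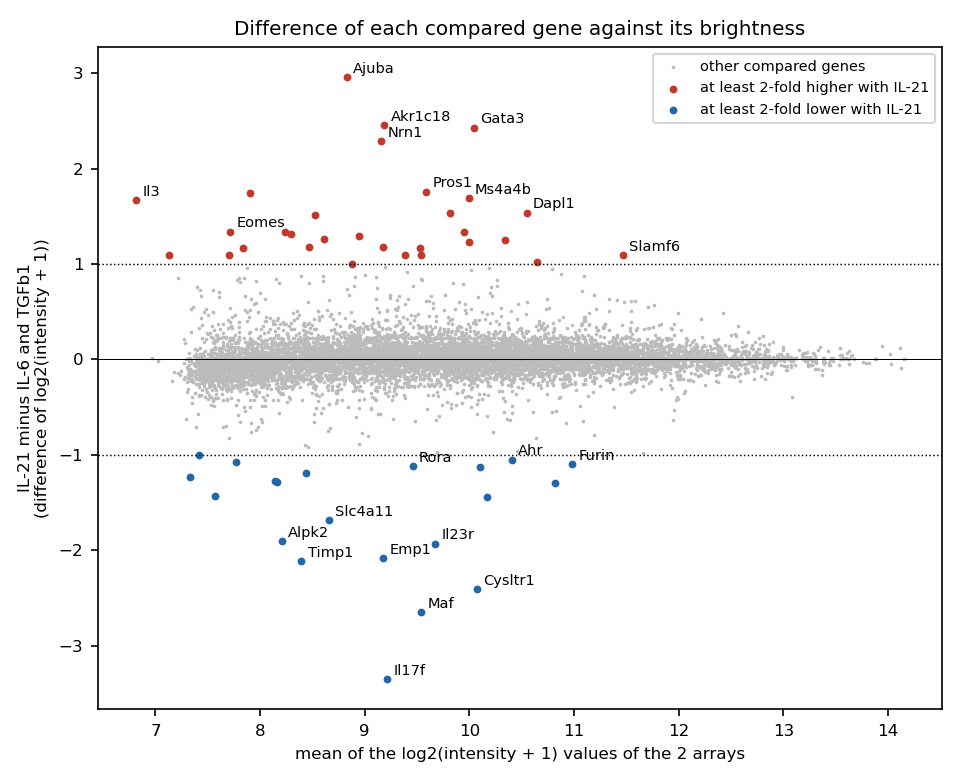
Difference of each of the 11003 compared genes (IL-21 minus IL-6 plus TGFb1, log2 units) against the mean log2 intensity of both arrays. Red and blue points are the 30 genes 2-fold or more higher and the 21 at least 2-fold lower with IL-21, and some of them are named. Dotted lines mark 2-fold, and grey points reach close to them, such as Cldnd1 (-0.98) and Epsti1 (0.97).

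The cells of both cultures expressed the defining genes of CD4+ T cells. Of the 12 genes in that list 11 were named on the array and all 11 were compared, with differences between -0.23 (Cd5) and 0.15 (Cd4 and Cd2). Cd4 had an intensity of 6765 with IL-21 and 6077 with IL-6 plus TGFb1. Markers of other blood cells were mostly below the brightness filter: none of the 6 NK cell markers and none of the 10 granulocyte and mast cell markers reached the brightness filter. Of 8 B cell markers 1 did (Cd79b, -0.04), of 4 erythroid and platelet markers 1 did (Itga2b, -0.04), and of 2 CD8 markers 1 did (Cd8b1, 0.25). Among 18 myeloid and dendritic markers 5 did, including Cd74 (0.16), H2-Aa (0.32) and H2-Ab1 (0.42), which encode class II antigen presentation proteins. The summed intensity of the myeloid list was 3590 with IL-21 and 3327 with IL-6 plus TGFb1, and that of the B cell list 1161 and 1138. The part of such cells in the results was not tested. The IL-2 receptor alpha gene Il2ra, which activated T cells switch on, had intensities of 10217 and 9953, nearly equal in both cultures. In RNA from whole cultures, fewer cells expressing a gene and less RNA of it per cell cannot be told apart.

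Of the Th17 effector cytokines, 6 were 1.5-fold or more lower with IL-21 and 1 was higher. Over all compared genes 0.527% were lower and 0.927% higher by that much. Il17f encodes IL-17F, a cytokine that draws neutrophils to epithelial barriers. Its intensity was 185 with IL-21, 1896 with IL-6 plus TGFb1 and 160 with medium, a difference of -3.35 or 10.2-fold. The IL-21 array thus sat near the medium array for this gene, and below the brightness filter. Il17a, its neighbour on the chromosome and the best known Th17 cytokine, was dim on all arrays, at 125, 193 and 175 in the same order, with a difference of -0.62 and the IL-21 array below the brightness filter. Il9, a mast cell growth cytokine, was 2.28-fold lower with IL-21 (229 against 524). Il21 itself was bright in both cultures, with 1780 under IL-21 and 3073 under IL-6 plus TGFb1 against 43.0 on the medium array, so both cultures had it well above medium, with a difference of -0.79. The chemokine gene Ccl20 (-0.71) and the lymphotoxin gene Lta (-0.65) were lower as well. Il24 went the other way, at 243 against 155 (0.65). Of the 10 compared cytokines 9 were below 0 and 6 were at least 1.5-fold lower, and the list median was -0.64 against 0.00 over all compared genes. Il17f, Il17a and Ccl20 passed the filter only through the IL-6 plus TGFb1 array, where they are high, so these counts describe the compared members and support nothing. Il10 (0.08), Csf2 (0.02) and Il17d (0.07) were below the filter on every array, and with them the median was -0.33. Il22 was not analysed here.

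The receptors of Th17 cells split into those that differed and those that did not. Il23r encodes the IL-23 receptor subunit that Th17 cells need for their maintenance. Its intensity was 418 with IL-21 and 1596 with IL-6 plus TGFb1, a difference of -1.93, against 77.9 with medium. Both treated cultures were therefore above medium, and the IL-21 culture lay between the other arrays. Ccr6, the chemokine receptor that marks Th17 cells and binds CCL20, was 183 with IL-21, 446 with IL-6 plus TGFb1 and 263 with medium (-1.28). Here the IL-21 array was the lowest. Il18r1, a chain of the IL-18 receptor, was lower with IL-21 by less (395 against 687, -0.80). Il12rb1, the chain shared by the IL-12 and IL-23 receptors, had a difference of -0.26, and Il17ra one of 0.07. Of the 10 compared receptors 4 were below 0, 5 above and 1 exactly 0, so the list median of 0.02 does not carry the 3 large differences.

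Of the 18 compared transcription factors and regulators of the Th17 list, 3 were at least 2-fold lower with IL-21 and the rest lay between -0.36 and 0.23. Over all compared genes 0.191% were at least 2-fold lower. The Th17 lists of cytokines, receptors and factors were written with earlier results of these data known, so their counts support nothing. Maf encodes c-Maf, a basic leucine zipper factor of Th17 and follicular helper cells. It had an intensity of 296 with IL-21, 1865 with IL-6 plus TGFb1 and 273 with medium, a difference of -2.65 or 6.28-fold. As with Il17f, the IL-21 array was close to medium. Rora, which encodes the nuclear receptor ROR alpha, was 475 against 1036 (-1.12), with 298 on the medium array. Ahr, the aryl hydrocarbon receptor, was 941 against 1950 (-1.05), with 262 on the medium array. For Rora and Ahr the IL-21 array lay between the other arrays. Other factors of the list were alike in both cultures: 0.11 for Batf, -0.03 for Irf4, 0.02 for Stat3, 0.02 for Hif1a and -0.18 for Runx1. Ikzf3 (0.11), Bhlhe40 (0.23) and Nr1d1 (-0.36) did not reach 1.5-fold either. Of the Ahr targets, Tiparp was at 0.11 and Gstt1, a glutathione transferase gene of that list, at 0.40. Ahrr (90.0 against 125), Cyp1a1 and Cyp1b1 were below the filter, so little can be said of Ahr targets as a group.

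The promoters of Il17f, Il17a and Il23r are shown because these Th17 genes were all lower with IL-21 by very unequal amounts. They are RefSeq sequences on GRCm38.p6, running from 250 bases before to 50 bases after the gene start, which is position 0. Capitals mark matches on either strand to any of 8 short motifs, listed further on. Il17f lies at chr1:20784221-20784520 on the minus strand, Il17a at chr1:20730655-20730954 on the plus strand and Il23r at chr6:67491806-67492105 on the minus strand.
Il17f: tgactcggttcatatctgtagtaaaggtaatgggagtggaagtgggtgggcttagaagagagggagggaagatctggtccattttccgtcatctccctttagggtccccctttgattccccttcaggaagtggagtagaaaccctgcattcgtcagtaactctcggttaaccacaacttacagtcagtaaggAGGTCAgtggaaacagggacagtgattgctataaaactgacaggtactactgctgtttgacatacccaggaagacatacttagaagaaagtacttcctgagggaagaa
Il17a: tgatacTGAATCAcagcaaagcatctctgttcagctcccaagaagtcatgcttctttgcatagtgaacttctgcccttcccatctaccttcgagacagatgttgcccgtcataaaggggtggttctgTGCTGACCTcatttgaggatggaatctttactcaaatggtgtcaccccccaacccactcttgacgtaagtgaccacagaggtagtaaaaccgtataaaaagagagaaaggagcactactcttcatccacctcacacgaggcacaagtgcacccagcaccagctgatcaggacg
Il23r: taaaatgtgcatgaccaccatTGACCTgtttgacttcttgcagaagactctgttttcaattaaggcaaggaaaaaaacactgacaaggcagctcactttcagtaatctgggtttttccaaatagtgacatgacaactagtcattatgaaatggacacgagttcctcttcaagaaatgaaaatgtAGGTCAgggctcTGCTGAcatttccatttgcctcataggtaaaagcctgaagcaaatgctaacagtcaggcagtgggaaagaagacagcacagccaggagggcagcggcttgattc
The letters AGGTCA, the core letters bound by nuclear receptors that include the ROR factors, occurred once in Il17f (first base at -58), once in Il17a (-120, as its reverse TGACCT, overlapping a TGCTGA match) and at -229 and -66 in Il23r. All 3 windows thus held these letters, whatever the size of the difference. The same letters were found in 4 of the 17 promoters of genes at least 2-fold lower with IL-21 (23.5%), in 4 of 27 promoters of genes 2-fold or more higher (14.8%) against 12.6% of the 11222 promoters of compared genes and 16.3% of all 32851 in the table.

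Of the genes listed as TGF-beta targets, 3 were 1.5-fold or more lower with IL-21 and 1 was higher. Over all compared genes 0.527% were lower and 0.927% higher by that much. Timp1 passed the filter only through the IL-6 plus TGFb1 array, where it is high. The list was written with earlier results of these data known, so these counts support nothing. Of 24 compared targets 18 were below 0 and 6 above, where 42.3% and 44.7% of all compared genes were, and the list median was -0.13. Timp1, an inhibitor of matrix metalloproteinases, was 161 with IL-21, 699 with IL-6 plus TGFb1 and 86.9 with medium (-2.11). Emp1, which encodes an epithelial membrane protein, was 280, 1188 and 162 (-2.08). These were the largest differences of the list by far. Pmepa1, a negative regulator induced by TGF-beta, was at least 1.5-fold lower (1196 against 2107, -0.82). The feedback inhibitor genes Smad7 (-0.26), Skil (-0.26) and Ski (-0.10), and Klf10 (-0.14), Ldlrad4 (-0.16) and Id2 (-0.19) were below 0. These amounts were inside the 95th percentile of the gaps between probe sets given above (0.34), which does not cover the spread between cultures. Nrp1, a semaphorin co-receptor listed as a target, went the other way, with 303 under IL-21, 142 under IL-6 plus TGFb1 and 485 under medium (1.09).

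In the TGF-beta pathway itself the receptors were alike, with differences of 0.00 for Tgfbr1 and -0.07 for Tgfbr2. Tgfbr3, the co-receptor betaglycan, was at -0.35. Of the receptor-activated SMADs, Smad3 was lower with IL-21 (1302 against 1742, -0.42) and Smad2 was at 0.11, while the common partner Smad4 was at -0.01. Genes that act on the ligand stood out in opposite directions. Furin, the protease that cleaves the TGF-beta precursor, was 1380 with IL-21, 2964 with IL-6 plus TGFb1 and 1537 with medium (-1.10). Lrrc32, the gene of GARP, a cell surface anchor for latent TGF-beta, was 765 against 478 (0.68), with 1214 on the medium array. Bmpr2, a receptor gene for the related bone morphogenetic proteins, was at -0.44. Tgfb1, the gene of the cytokine, was nearly equal (-0.11). Of the 21 compared pathway genes 13 were below 0 and 7 above, with a median of -0.09.

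The list of STAT3 and feedback genes used here did not separate the cultures. It leaves out Th17 genes given above, such as Il17f, Il23r and Maf, so it does not cover every gene that may answer STAT3. Of the 28 members of the STAT3 and feedback list, all compared, none was 1.5-fold apart, and the median was 0.02. Socs3, the feedback inhibitor of gp130 signalling, had intensities of 1516 with IL-21 and 1517 with IL-6 plus TGFb1, against 530 with medium. Bcl3 was likewise at 2828 and 2820, against 1303. From these probe sets both genes were nearly equal between the cultures, and above medium. A dimmer probe set of Socs3 gave 405 with IL-21 and 331 in the other culture (0.29). Prdm1, the gene of Blimp-1, was the member farthest from 0 (0.50), at dim intensities of 222 and 157. Pim2 (0.26), Mcl1 (0.26) and Myc (0.18) were slightly higher with IL-21. Of the 9 compared JAK and STAT genes 7 were above 0 and none reached 1.5-fold. Stat4, the IL-12 signal transducer, was at 0.55 (4046 against 2771) and Jak2 at 0.33 (3738 against 2969). Jak3 was not analysed here.

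Receptor genes for the cytokines given to the cells were not 1.5-fold apart, with differences of 0.20 for Il21r, 0.05 for Il6ra and 0.05 for Il6st, which encodes gp130. Il10ra was the only gene of the cytokine receptor list past 1.5-fold (809 against 508, 0.67). Il15ra (0.43), Il4ra (0.35) and Il2rb (0.29) were higher with IL-21 and Il7r was lower (-0.30). The common gamma chain gene Il2rg was not analysed here.

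Of the genes in the Th2 list, 5 of 16 were 1.5-fold or more higher with IL-21 and 2 were lower. Over all compared genes 0.927% were higher and 0.527% lower by that much. Il24, 1 of the 5, passed the filter only through the IL-21 array, where it is high (243 against 155). The list was written with earlier results of these data known, so these counts support nothing. Gata3 encodes the zinc finger factor that directs Th2 differentiation. Its intensity was 2451 with IL-21, 453 with IL-6 plus TGFb1 and 1513 with medium, a difference of 2.43 or 5.40-fold. The medium array lay between the others, nearer to IL-21. Il4, the signature cytokine, was 342 against 152 (1.17), with 198 on the medium array. Penk, which encodes the enkephalin precursor, was 619 against 217 (1.51), and Epas1, the hypoxia factor HIF-2 alpha, was 494 against 198 (1.32). Il13 (0.35), Il4ra (0.35), Nfil3 (0.33) and Ccr8 (0.48) were above 0 without reaching 1.5-fold, and Ccr4 was equal in both cultures (0.00). The list also contains Maf and Il9, which were lower as given above. Of its 16 compared genes 11 were above 0 and 5 below, 4 were past 2-fold on the higher side and 2 on the lower, and their median was 0.34, or 0.14 with the members below the filter. Il5 was below the filter on all arrays.

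Of the genes in the Th1 list, 3 were 1.5-fold or more higher with IL-21 and 2 were lower, against 0.927% and 0.527% of all compared genes. Eomes, a T-box factor of cytotoxic and memory T cells, was 332 with IL-21, 131 with IL-6 plus TGFb1 and 1180 with medium (1.34). Ifng, the gene of interferon gamma, was 514, 290 and 1153 in that order (0.82). Both treated cultures were well below medium in these genes, and IL-6 with TGFb1 was the lowest. Tbx21, the gene of T-bet, was 2842 against 1967 (0.53), and Cxcr3, a chemokine receptor of Th1 cells, was 1340 against 1031 (0.38). The chemokine gene Ccl3 was 2465 against 1277 (0.95), with 4915 on the medium array. Lta and Il18r1 were lower with IL-21, as above, and Il12rb2 was at 0.10 and Runx3 at 0.03. Of the 19 compared genes 11 were above 0 and 8 below, with a median of 0.10.

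Among the 12 compared cytotoxic granule genes 4 were 2-fold or more higher with IL-21, against 0.273% of all compared genes. The median of the 12 was 0.39, but with the 9 members below the filter it was 0.07. Gzma, which encodes the protease granzyme A, was 480 with IL-21, 189 with IL-6 plus TGFb1 and 149 with medium (1.34), so here the IL-21 array stood apart from both others. Nkg7, a granule membrane protein gene, was 2291 against 1126 (1.02), with 2259 on the medium array. Gzmb was at 0.49 (4818 against 3430), Prf1, the perforin gene, at 0.20 and Gzmc at 0.28. Crtam, a surface protein of cytotoxic CD4+ cells, was 241 against 145 (0.73), and passed the filter only through the IL-21 array. Ctsw, a cathepsin gene, was on the lower side (-0.40). The granzyme genes are close copies of each other, and whether their probe sets share signal was not tested. Among the members below the filter, Klrd1, an NK receptor chain gene, was lower with IL-21 (98.1 against 173, -0.81), and Gzmk (-0.15) and Klrk1 (-0.06) differed little. The NK cell markers, summed over the list, stood at 322 with IL-21 and 330 in the other culture, where their part in the result was not tested.

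In the protease inhibitor list 3 of 15 compared genes were 2-fold or more higher and 3 at least 2-fold lower. Over all compared genes these shares were 0.273% and 0.191%. The 3 lower ones, Timp1, Serpinb1a and Ctla2b, passed the filter only through the IL-6 plus TGFb1 array, where they are high. The list was also written with earlier results of these data known, so these counts support nothing. Serpinb6b and Serpinb9, intracellular serpins of which the latter blocks granzyme B, were 1994 against 838 (1.25) and 973 against 455 (1.10). Serpinb1a, an inhibitor of neutrophil elastase and close to both on the chromosome, had the opposite sign (149 against 316, -1.08). Timp1 is described above, and Ctla2b, a cysteine protease inhibitor gene, was 115 against 310 (-1.43). Its paralog Ctla2a was 196 against 321 (-0.71), and Serpinb5, the gene of the serpin maspin, 156 against 255 (-0.71). Pros1, counted in this list, encodes the anticoagulant protein S, a cofactor rather than a member of a protease inhibitor family. Its intensity was 1413 with IL-21, 417 with IL-6 plus TGFb1 and 908 with medium (1.76). Cystatin genes differed little, with 0.20 for Cst7 and -0.12 for Cst3. The list median was -0.13, and it was 0.65 over the 6 members that passed a brightness filter at the 75th percentile.

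**Figure D3:**
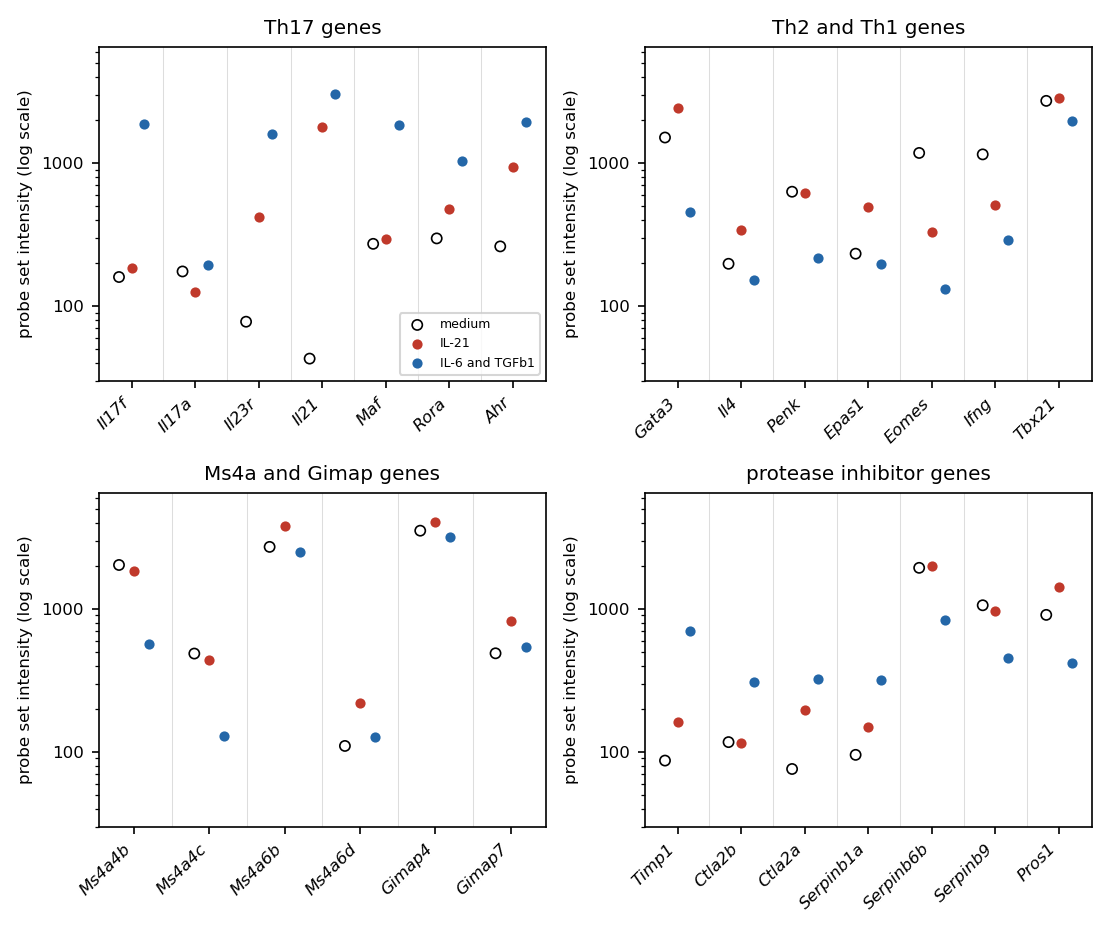
Probe set intensity on a log axis for selected genes in 4 groups, with 1 point for each array: medium (open), IL-21 (red) and IL-6 with TGFb1 (blue). Il17f and Maf are near medium under IL-21, Gata3 is lowest under IL-6 with TGFb1 (453), and Serpinb1a has the opposite order of Serpinb6b and Serpinb9.

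The Ms4a genes encode membrane proteins with 4 spans and lie together on chromosome 19, and the 5 compared were above 0. Ms4a4b, expressed in naive T cells and linked to co-stimulation, was 1832 with IL-21, 565 with IL-6 plus TGFb1 and 2028 with medium (1.69). Ms4a4c was 437, 130 and 487 in that order (1.74). In both genes the IL-21 array was close to medium and the other array far below. Ms4a6d (0.76), Ms4a6b (0.61) and Ms4a6c (0.41) were higher by less. Of the Gimap genes, GTPases of lymphocyte survival, Gimap7 (0.58) and Gimap4 (0.36) were the highest and Gimap8 (-0.04) the lowest. Over both families 11 of 13 compared genes were above 0, against 44.7% of all compared genes. Ms4a6d passed the filter only through the IL-21 array, where it is high (218 against 128). The list median was 0.36, and over the processing settings it ran from 0.22 to 0.41. The list was written with earlier results of these data known, so these counts support nothing.

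The promoters of Ms4a4b (chr19:11443308-11443607) and Ms4a4c (chr19:11407411-11407710), both on the plus strand of GRCm38.p6, are printed because the genes are direct neighbours with almost the same difference.
Ms4a4b: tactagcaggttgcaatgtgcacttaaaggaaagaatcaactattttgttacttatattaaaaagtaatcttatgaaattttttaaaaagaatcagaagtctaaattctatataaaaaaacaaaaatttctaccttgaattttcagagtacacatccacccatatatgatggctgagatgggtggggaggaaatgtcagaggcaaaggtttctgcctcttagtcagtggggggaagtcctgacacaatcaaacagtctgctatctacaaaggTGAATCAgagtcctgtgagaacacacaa
Ms4a4c: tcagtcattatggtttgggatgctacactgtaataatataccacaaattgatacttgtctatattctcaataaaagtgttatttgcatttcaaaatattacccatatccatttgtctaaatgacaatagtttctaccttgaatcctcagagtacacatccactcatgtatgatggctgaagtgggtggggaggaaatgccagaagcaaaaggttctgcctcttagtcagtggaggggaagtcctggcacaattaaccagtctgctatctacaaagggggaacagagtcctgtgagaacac
Aligned end to end, 237 of 321 positions were identical (73.8%). This compares with 52.6% for the pair Il17f and Il17a 47.2% for Serpinb9 and Serpinb6b, and 79.5% and 69.0% for Ctla2b against each of the Ctla2a promoters, under the same alignment. Only Ms4a4b held a match, to the AP-1 motif TGANTCA at position 22. Whether the probe sets of these paralogs share signal was not tested.

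The gene with the highest difference of all was Ajuba, which encodes a LIM domain scaffold protein of cell contacts and the Hippo pathway. Its intensity was 1272 with IL-21, 162 with IL-6 plus TGFb1 and 423 with medium, a difference of 2.96 or 7.80-fold, and the medium array lay between the others. Akr1c18, a progesterone-metabolizing enzyme gene, was 1364, 248 and 703 (2.46), again with medium in between. Nrn1, the gene of the neuronal growth protein neuritin, was 1258, 257 and 1666 (2.29), so there medium was the highest. In the list of integrins and adhesion genes, whose members were chosen with these differences known, 5 of 26 were 2-fold or more higher with IL-21. Over all compared genes that share was 0.273%, and because of that choice the count supports nothing. Besides Ajuba, Nrn1 and Nrp1 the 5 were Lad1, the gene of the anchoring filament protein ladinin (1571 against 621, 1.34), and Itgb3, the integrin beta 3 chain (868 against 382, 1.18). Itgb1 was at 0.51, while Itgb7 (-0.33), Itga3 (-0.47) and Lpp (-0.65) were lower. The other probe sets of Lpp gave -0.26 and -0.17. The list median was 0.00, as for all compared genes.

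Ajuba (chr14:54577612-54577911) and Gata3 (chr2:9878551-9878850), both on the minus strand of GRCm38.p6, are shown as the highest difference of all and the highest of a lineage factor.
Ajuba: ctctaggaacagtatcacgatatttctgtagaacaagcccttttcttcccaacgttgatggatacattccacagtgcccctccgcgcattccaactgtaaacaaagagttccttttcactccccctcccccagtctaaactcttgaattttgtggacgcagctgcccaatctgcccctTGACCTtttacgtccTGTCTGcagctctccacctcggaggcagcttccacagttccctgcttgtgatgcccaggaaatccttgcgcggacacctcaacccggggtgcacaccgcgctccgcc
Gata3: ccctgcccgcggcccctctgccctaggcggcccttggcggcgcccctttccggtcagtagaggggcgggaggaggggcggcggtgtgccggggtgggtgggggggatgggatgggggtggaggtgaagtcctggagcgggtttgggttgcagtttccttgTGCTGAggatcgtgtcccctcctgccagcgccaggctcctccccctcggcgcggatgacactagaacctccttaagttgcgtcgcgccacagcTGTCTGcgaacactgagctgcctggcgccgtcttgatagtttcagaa
Both windows held CAGACA, an extended SMAD element, as its reverse TGTCTG, at -57 in Ajuba and at 3 in Gata3. Ajuba also held AGGTCA (as TGACCT) at -72 and Gata3 the Maf letters TGCTGA at -90. CAGACA was found in 7 of 27 promoters of the genes 2-fold or more higher with IL-21 (25.9%), in 4 of 17 of those lower (23.5%) against 16.1% for compared genes and 21.0% of all promoters.

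The remaining motifs were TTCNNNGAA for STAT factors, GCGTG for Ahr with Arnt, AGATAA for GATA factors and AGGTGTGA for T-box factors. The STAT letters were in 3 of 27 promoters of genes higher with IL-21 (11.1%) and 2 of 17 of genes lower (11.8%), against 6.80% for compared genes and 8.30% of all. GCGTG was in 14.8% and 41.2% in that order, against 51.0% of the promoters of compared genes and 32.4% of all. AGATAA was in 11.1% and 5.88%, against 6.48% for compared genes and 11.2% of all. TGCTGA was in 22.2% and 17.6%, against 15.2% and 19.5%. AP-1 letters were in 11.1% and 17.6%, against 4.85% and 7.81%. AGGTGTGA was in 2 of 27 promoters, those of Trat1 and Nkg7, against 0.909% for compared genes and 1.28% of all. The table held promoters for 25 of the 30 genes higher with IL-21 and 14 of the 21 lower. These are matches of letters in short windows, a description and not sites.

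Of the remaining genes at least 2-fold lower with IL-21, Cysltr1 differed most. It encodes a receptor for cysteinyl leukotrienes, lipid mediators of allergic inflammation. Its intensity was 466 with IL-21, 2483 with IL-6 plus TGFb1 and 133 with medium (-2.41), while Cysltr2, the other receptor, was alike in both cultures (271 against 243, 0.16). The pair therefore parted between the cultures, although both receptors were above their medium intensities on each treated array. Alpk2, an alpha kinase gene, was 152 against 572 (-1.90), and Slc4a11, a membrane transporter gene, 225 against 720 (-1.68). Smox, which oxidizes the polyamine spermine, was 700 against 1898 (-1.44), and the carboxypeptidase gene Cpd 1148 against 2831 (-1.30). For Slc4a11, Smox and Cpd the IL-21 array was near medium, at 213, 570 and 977 respectively. Pdpn, the gene of podoplanin, a glycoprotein known from pathogenic Th17 cells (-1.27), Cd5l (-1.23), Avpi1 (-1.13) and Cd86 complete the set with the genes already named. Cd5l encodes a regulator of lipid metabolism described in Th17 cells, and was 104 against 245, below the filter with IL-21. Cd86 was 120 against 241, and it fell short of 2-fold under quantile normalization, under median centring and with a pseudocount of 16.

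Among genes of T cell activation 24 of 33 were above 0 and 8 below, where 44.7% and 42.3% of all compared genes were. The list median was 0.18. Il3, a growth factor gene for blood cell precursors, was dim throughout, at 200 with IL-21, 62.2 with IL-6 plus TGFb1 and 129 with medium (1.67). It passed the filter only through the IL-21 array, where it is high. Tnfsf8, the gene of CD30 ligand, was 769 against 314 (1.29), and Il2, the T cell growth factor, was 2963 against 1604 (0.88). Tnfrsf9, which encodes the costimulatory receptor 4-1BB, was at 0.72, Cd83 at 0.63 and Spry1, an inhibitor of MAP kinase signalling, at 0.61. These were the members past 1.5-fold, with Cd86 on the other side. The early response genes Egr2 (0.40), Nr4a3 (0.31), Egr1 (0.16) and Nr4a1 (0.16) were above 0 by less, and Rel (0.02), Cd40lg (0.00) and Il2ra (0.04) were equal.

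Costimulatory and inhibitory receptor genes were above 0 in 18 of 24 cases, against 44.7% of all compared genes, with a median of 0.16. Slamf6, an adhesion receptor of follicular helper and progenitor cells, was 4122 against 1940 (1.09), with 3924 on the medium array. Cd274, which encodes PD-L1, was 1210 against 696 (0.80), and Cd160 (0.67) and Cd226 (0.61) were at least 1.5-fold higher. Cd160 passed the filter only through the IL-21 array, where it is high. Cd86, named above, was lower (120 against 241). Cd28 (-0.10), Ctla4 (-0.27), Icos (0.07) and Pdcd1 (0.06) were alike. In the T cell receptor signalling list 1 of 34 genes was past 1.5-fold, where 0.927% of all compared genes were higher and 0.527% lower by that much. That gene was Trat1, which encodes an adaptor that stabilizes the receptor, at 1560 against 665 (1.23), with 2803 on the medium array. The ubiquitin ligase gene Cblb was at 0.51 and Fyn at 0.23. Lck was not analysed here. Among TNF family genes Tnfsf10, the gene of TRAIL, was 526 against 285 (0.88), while the death receptor gene Tnfrsf25 was lower with IL-21 (-0.56).

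Regulatory and follicular helper genes gave no common direction. Foxp3, the factor of regulatory T cells, was 629 with IL-21 and 556 with IL-6 plus TGFb1 (0.18), both below the medium value of 997. Of the 21 compared regulatory T cell genes 12 were above 0 and 9 below, and those past 1.5-fold (Nrp1, Tnfrsf9, Lrrc32 and Cd83) were all higher with IL-21. Over all compared genes 0.927% were higher and 0.527% lower by that much. Bcl6, the repressor of follicular helper cells, was 322 against 294 (0.13). In that list of 22 compared genes Slamf6 and Il4 were higher, Maf and Il21 were lower, and the median was 0.05. Pou2af1, a coactivator gene, was at -0.43 and Btla, an inhibitory receptor gene, at 0.45.

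Naive T cell and homing genes were slightly below 0 in the middle (median -0.07), with 14 of 24 below and 9 above. Dapl1 was the exception in size: it is a marker of naive and memory T cells, and was 2551 with IL-21, 876 with IL-6 plus TGFb1 and 4139 with medium (1.54). S1pr1, the receptor for leaving lymph nodes, was 393 against 595 (-0.60). Txnip (-0.36), Igfbp4 (-0.34), Il7r (-0.30) and Foxo1 (-0.26) were lower with IL-21, and Klf3 (0.43) was higher. Tcf7 was not analysed here. Among chemokine genes and receptors Ccl3, Ccr6, Ccl20 and S1pr1 were past 1.5-fold, and Ccr7 was at -0.14 and Cxcr4 at 0.05.

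Among interferon response genes 3 of 27 were at least 1.5-fold higher with IL-21 and none was lower by that much, with a median of 0.08. Over all compared genes 0.927% were higher and 0.527% lower by that much. Ifi203, of the interferon-inducible p200 family, was 602 against 251 (1.26), with 1619 on the medium array. The exonuclease gene Isg20 was 743 against 409 (0.86), and Ifih1, the RNA sensor MDA5, 588 against 352 (0.74). Other members, such as Irf7 (0.13), Oas3 (-0.01), Irf9 (-0.10) and Stat2 (-0.22), did not follow them. Zinc-binding metallothioneins also parted: Mt2 was 1005 against 1950 (-0.96), while Mt1 was at -0.08.

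Metabolic lists showed small shifts or none. Of 34 glycolysis and hypoxia genes 25 were above 0 (median 0.12), against 44.7% of all compared genes. The glucose transporter gene Slc2a3 was past 1.5-fold (1844 against 1218, 0.60). Pfkfb3, a driver of glycolytic flux, was at 0.41, Bnip3 at 0.40 and the lactate exporter gene Slc16a3 at 0.39, while the oxygen sensor gene Egln3 was lower (-0.42). In the cholesterol and fatty acid list 22 of 32 genes were above 0, against the same 44.7%, and none was 1.5-fold apart. The sterol synthesis genes Cyp51 (0.37), Hmgcs1 (0.36) and Idi1 (0.31) were highest, and the sterol exporter genes Abca1 (-0.31) and Abcg1 (-0.30) lowest. The lists of respiratory chain, proliferation, unfolded protein response and amino acid stress genes each had a median of 0.00, with no gene past 1.5-fold. Farthest from 0 in them were Cycs (0.25), the cytochrome c gene, Cdkn2c (0.40), a cell cycle inhibitor gene, Manf (-0.17) and Vldlr (0.50). NF-kB genes ran only from -0.20 to 0.13 (median -0.01). Of the AP-1 and Batf list, apart from Maf, only Atf3, a stress-induced factor, was past 1.5-fold (1638 against 920, 0.83). In the BCL-2 family only Bcl2l11, the gene of the death promoter BIM, was (754 against 483, 0.64).

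**Figure D4:**
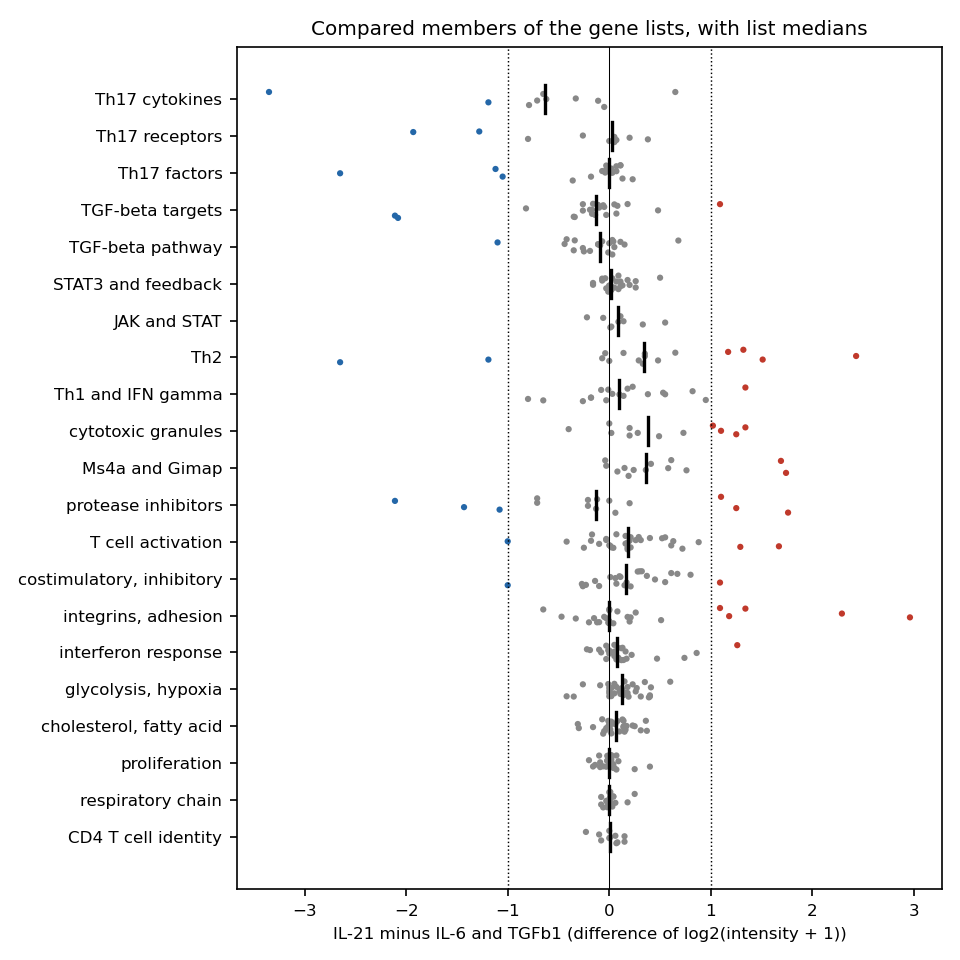
Differences (IL-21 minus IL-6 plus TGFb1, log2 units) of the compared members of 21 gene lists, 1 point per gene, with the list median as a black bar and 2-fold as dotted lines. The Th17 cytokine median of -0.64 lies farthest below 0, and the medians of the cytotoxic granule (0.39), Ms4a and Gimap (0.36) and Th2 (0.34) lists farthest above. With members below the brightness filter the Th17 cytokine, cytotoxic and Th2 medians move to -0.33, 0.07 and 0.14. The Ms4a and Gimap median was as low as 0.22 over the processing settings.

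Itih5, which encodes a matrix stabilizing protein (1539 against 529, 1.54), Spin4 (1.18), Slfn1 (1.17), a gene of the Schlafen family, Ccdc141 (1.09), Gpm6b (1.09) and Crabp2, a retinoic acid binding protein gene, were the remaining genes 2-fold or more higher with IL-21. Ccdc141 rests on 1 of its 5 probe sets, since the others gave between 0.19 and 0.50. Crabp2 fell short of 2-fold under quantile normalization and with a pseudocount of 16.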

How the data were processed

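Gene expression was measured on 3 arrays, 1 for each culture. Per the labels' protocols, RNA was biotin-labelled with an Affymetrix whole-transcript kit. The authors deposited 28815 probe set intensities per array, on a linear scale as read from the values. Their summarization and normalization: not given in the sources used here. Build mm8 is named in the submitters' processing notes. The 2 treated arrays had exactly equal values at 21.6% of probe sets, which puts small differences at 0. Arrays' number limits the precision, and 1 array per culture allows no error.

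Gene symbols came from GEO's platform annotation of the probe sets: 21780 had 1 symbol, 1605 several and 5430 none listed, and 21689 matched RefSeq's GRCm38.p6 table by Entrez identifier. The brightest probe set by mean over the 3 arrays stood for a gene. No normalization was added to log2(intensity + 1). All genes past 2-fold were named, with members of 42 gene lists past 1.5-fold and selected regulators, and of lists with fewer than 3 such members mostly those farthest from 0. Other members named were chosen after their values were seen. The members and lists were chosen with earlier results of these data known. Promoters were searched for 8 motifs and aligned globally with Biopython 1.88, and tables were computed with pandas 2.3.3. The calculation was tested on simulated data. Alternatives covered scaling, the pseudocount, a floor, the brightness filter, the probe set rule and the threshold.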

Additional observations from a re-analysis of the deposited data

How the results depend on the processing

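Of the 51 genes past 2-fold, 48 stayed past it in the same direction under each of the 10 other settings that compared them. The exceptions were Ccdc141 (0.99 with a pseudocount of 16, 0.54 as the mean of its probe sets and 0.19 from the dimmest), Cd86 (-0.96 under quantile normalization and under median centring, -0.92 with a pseudocount of 16) and Crabp2 (0.96 under quantile normalization and 0.97 with a pseudocount of 16). Changes of the brightness filter alter only which genes are compared, not a gene's difference. The probe set rules could move only Ccdc141, which alone of the 51 has several probe sets. For the other genes only scaling, the pseudocount and the floor could move a difference, so most settings were no check on them. With 30 genes higher and 21 lower as the reference, a brightness filter at the 75th percentile left 20 higher and 11 lower among 5617 genes, and requiring both treated arrays to be bright left 23 and 12 among 10392. Both compare fewer genes, and the latter drops genes dim on either treated array, such as Il17f and Ajuba. The other settings gave 28 to 32 higher and 20 to 22 lower. A threshold of 1.5-fold gave 102 and 58. Median centring moved the median of all compared genes to 0.04 and quantile normalization to -0.02. The Th17 cytokine median ran from -0.79 to -0.33, the Th2 median from 0.14 to 0.38 and the cytotoxic granule median from 0.07 to 0.49 over these settings. No paired analysis was possible because each culture has 1 array. The summarization behind the deposited intensities, and the spread between cultures, could not be examined.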

Other observations

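Genes between 1.5-fold and 2-fold apart that belong to none of the described lists, named here after their values were seen, included several known regulators. Rbpj, the DNA-binding partner of Notch, was 3166 with IL-21 and 4932 with IL-6 plus TGFb1 (-0.64, from the brighter of its 2 probe sets, the dim other giving 0.00). Vdr, the vitamin D receptor gene, was 205 against 325 (-0.66), and the water and glycerol channel gene Aqp3 191 against 321 (-0.74). Ptprj, a receptor phosphatase gene, was lower with IL-21 in both of its probe sets (-0.97 and -0.84). On the higher side were Ecm1, an extracellular matrix protein gene of Th2 cells (1292 against 745, 0.79), Tgm2, the transglutaminase gene (3699 against 2424, 0.61), Casp4, an inflammatory caspase gene (686 against 444, 0.63), and Ak4, an adenylate kinase gene induced by hypoxia (2567 against 1374, 0.90, with 0.45 from its dimmer probe set).

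Some genes at least 1.5-fold apart lie beside each other. Of 160 such genes, 153 were found in the RefSeq table, and they formed 22 pairs on the same chromosome with at most 2 protein-coding genes between them, 18 with the same direction and 4 with opposite directions. Direct neighbours with the same direction included Cd274 and Pdcd1lg2, which encode both ligands of PD-1 (0.80 and 0.85), Il3 and Acsl6 (1.67 and 0.70), Itih5 and Sfmbt2 (1.54 and 0.82), and Cd5l and Fcrl1 (-1.23 and -0.90). Trim12a and Trim12c, close copies with 1 gene between them, were at 0.75 and 0.96. The cytokine genes Il2 and Il21 are direct neighbours and went opposite ways (0.88 and -0.79). No count of pairs was made for genes that did not differ, so these pairs are a description alone.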
